A study of Mus musculus with 24 samples.

Results

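Natural ageing of the liver was examined in 8 of the 24 libraries of the series, which were those of wild-type (Ercc1 +/+) mice fed without restriction. All 4 libraries labelled with this genotype, free feeding and 104 weeks of age were compared with all 4 labelled with the same genotype and feeding and 16 weeks of age. The mice were male F1 hybrids of the C57BL6J and FVBN strains, kept singly on a synthetic diet of which adult wild-type mice ate 3.0 g a day on average. Mice were fed at the end of the light phase, were not fed before collection on the last day, and no hour of collection is given for single samples. Polyadenylated liver RNA was sequenced and counted per gene. The other 16 libraries, from mice restricted by 30% and from Ercc1-deficient (Ercc1 d/-) mice, served to estimate the spread of each gene. The mutant mice, which carry a defect in a DNA repair endonuclease and age early, also gave a second age comparison, freely fed (2.3 g a day) at 16 against 7 weeks of age. Samples carry a number within their group, and nothing says that they came from different mice, so a p-value reflects the spread between these samples only.

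The liver oxidises fatty acids, makes bile acids, clears foreign compounds and secretes most plasma proteins. Fatty acid oxidation is driven by PPARalpha, a nuclear receptor that fatty acids activate during fasting, and which switches on its own set of peroxisomal, microsomal and mitochondrial enzymes. Many liver enzymes differ between the sexes under the control of the pattern of growth hormone release, and a large share follow the circadian clock, in which CLOCK and BMAL1 drive their own repressors. Old livers are known for immune cell infiltration and inflammatory signalling.

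Total counts ran from 14511828 to 19576692 at 16 weeks and from 13444149 to 15343065 at 104 weeks. The defining hepatocyte gene albumin (Alb) was among the most abundant transcripts, at 83982, 65350.4, 71210.2 and 68006 CPM at 16 weeks and 67934, 70192, 36903 and 42857 CPM at 104 weeks, where CPM is the usual count scaled to library size, with sizes adjusted by the trimmed mean of M-values (TMM). Summed hepatocyte identity genes ranged from 103298 to 122515 CPM at 16 weeks and 76002 to 132768 CPM at 104 weeks. Ercc1, the gene targeted in the mutant, was measured at 3, 2.06, 2.81 and 2.47 CPM at 16 weeks and 3.08, 4.03, 3.16 and 2.18 CPM at 104 weeks (log2 fold change 0.26 ± 0.27, adjusted p = 0.593). In the 500 most variable genes, principal component 1 (54.8% of the variance) placed the libraries between -23.2 and -18.0 at 16 weeks and between 11.2 and 30.6 at 104 weeks. Correlations of log2 CPM across genes were 0.978 to 0.986 among the 16-week libraries, 0.957 to 0.974 among the 104-week libraries and 0.945 to 0.969 between the ages. The old libraries were more variable, with a median per-gene SD of 0.310 on the log2 scale against 0.191, and the SD was larger at 104 weeks in 74.5% of genes.

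Of 12690 genes tested, 10.1% were called changed, which here means a Benjamini-Hochberg adjusted p under 0.05 in edgeR's quasi-likelihood test. By direction, 5.13% of genes were called higher and 5% lower at 104 weeks, and the 4 values of one age lay wholly above those of the other in 16.9%. The shares of 5.13% and 5% are the background for the list counts of this main fit only. Counts from other fits have their own background. Without the filter on low counts 545 of 18932 genes were called higher and 553 lower. By DESeq2 these numbers were 839 and 809 of 12690, and without 16-week replicate 3 they were 364 and 428 of 12850. Genes of fatty acid oxidation, the drug-metabolism list of xenobiotic receptors and phase 1 enzymes, and female-biased genes were called lower more often than this background. B and plasma cell markers, acute-phase and immediate-early genes were called higher more often than the background share. Core clock genes were called in both directions. The median log2 fold change over all genes was 0.016. In the lists below where edgeR called members in one direction and 0 in the other, at most 4 met an unadjusted p under 0.05 in that other direction, and DESeq2 called 0.

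**Figure D1:**
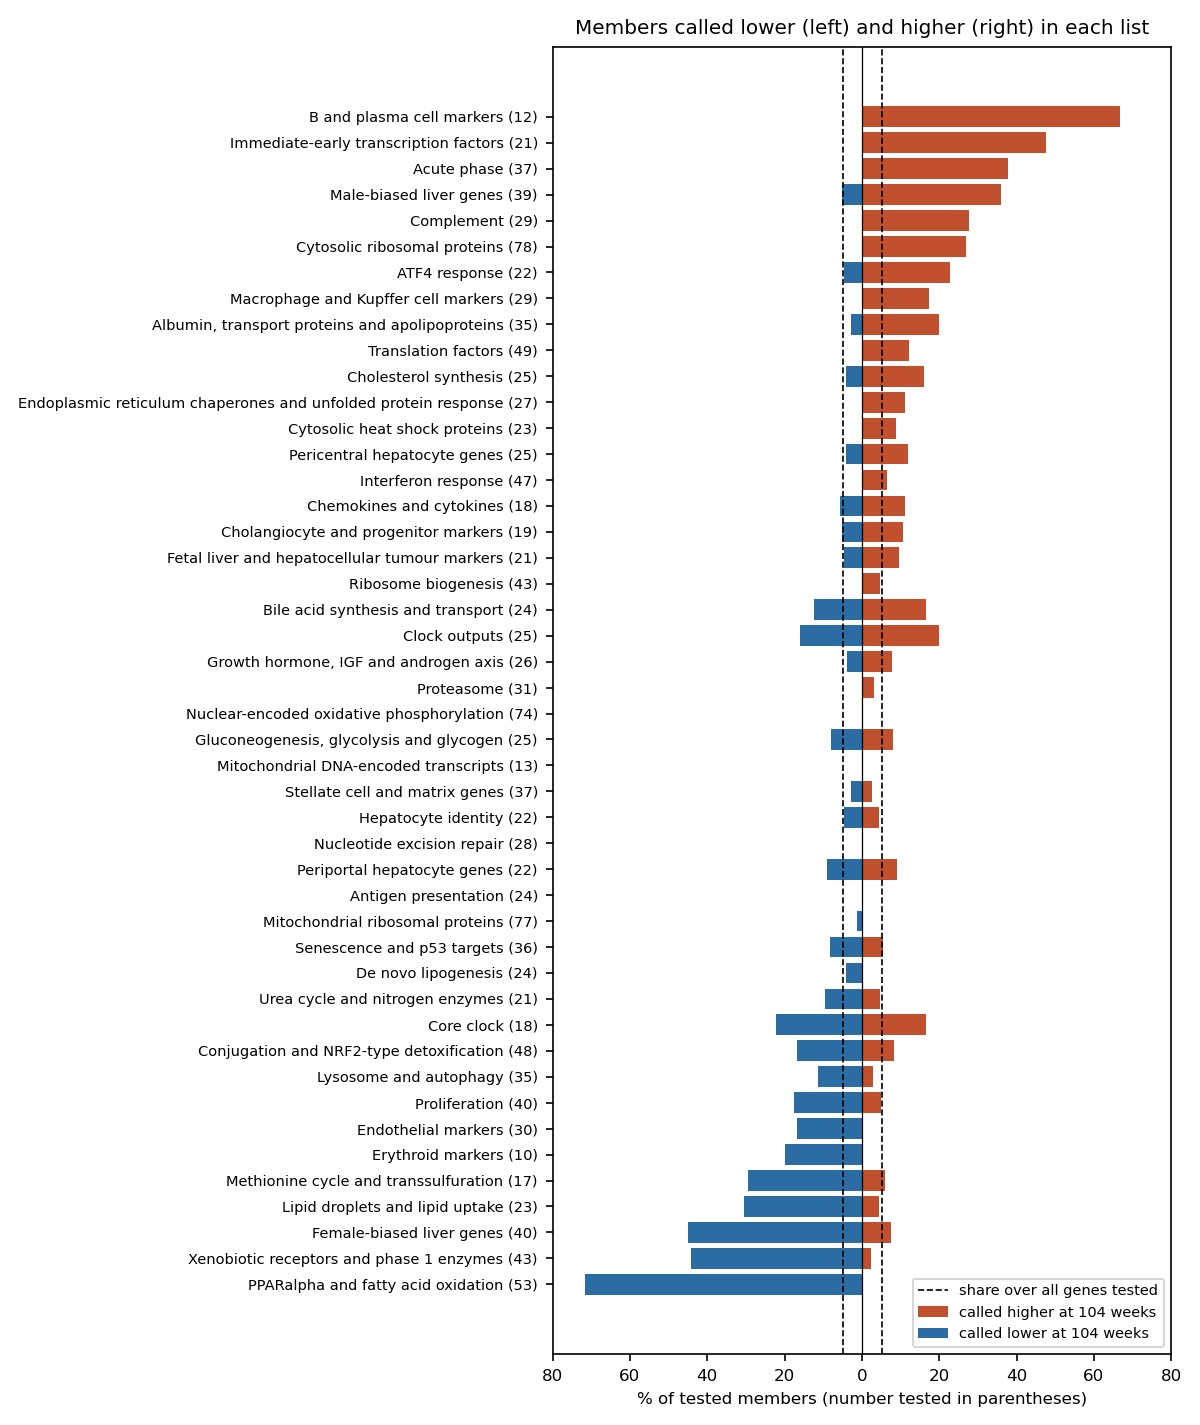
Share of the tested members of each gene list called lower (left, blue) or higher (right, orange) at 104 weeks, in % of members, with the number tested in parentheses and the shares over all 12690 genes as dashed lines. Lists with at least 10 tested members are shown. The longest bar to the left is that of PPARalpha and fatty acid oxidation (38 of 53) and the longest to the right that of B and plasma cell markers (8 of 12). Without the filter on low counts the latter was 10 of 31.

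Genes of fatty acid oxidation and PPARalpha were lower at 104 weeks, most of all the microsomal hydroxylases and the acyl-CoA thioesterases. Of 53 listed genes, all of which passed the filter on low counts, 0 were called higher and 38 lower (5% of all genes were called lower), with a median log2 fold change of -0.78. The groups did not overlap in 39 of the 53, against 16.9% of all genes. Leaving out any 1 of the 8 libraries left 33 to 37 called lower. Cyp4a14, a fatty acid omega-hydroxylase and classical PPARalpha target, stood at 625, 266, 478 and 787 CPM in the 4 libraries at 16 weeks and 25, 4.51, 16.2 and 5.17 CPM at 104 weeks (log2 fold change -5.41 ± 0.57, adjusted p = 3.53e-06). Errors of fold changes are standard errors. All 4 old libraries lay far below the lowest young one, though the rule that named Cyp4a14 among the largest falls required no overlap. The neighbouring hydroxylase genes Cyp4a31 (log2 fold change -4.06 ± 0.32, adjusted p = 1.63e-08) and Cyp4a32 (log2 fold change -3.50 ± 0.30, adjusted p = 5.3e-08) followed, as did Cyp4a29, at 26.3, 17.8, 24.1 and 31.1 CPM at 16 weeks and 1.5, 0.87, 0.74 and 0.728 CPM at 104 weeks (log2 fold change -4.70 ± 0.40, adjusted p = 5.82e-08). These genes lie in a cluster of near-identical copies on chromosome 4 and can share reads, so their separate values are uncertain.

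The thioesterases, which release fatty acids from coenzyme A, fell to a similar extent. Acot1, the cytosolic form, was at 333, 246, 299 and 350.2 CPM at 16 weeks and 24.4, 28.4, 21.5 and 39 CPM at 104 weeks (log2 fold change -3.44 ± 0.34, adjusted p = 8.56e-07), and the peroxisomal Acot3 at 183, 127, 164 and 163 CPM at 16 weeks and 19.7, 9.57, 9.89 and 15 CPM at 104 weeks (log2 fold change -3.56 ± 0.39, adjusted p = 3.55e-06). Acot5 had log2 fold change -3.39 ± 0.35 (adjusted p = 1.59e-06), and this group too is a cluster of similar genes. Crat, carnitine acetyltransferase (chromosome 2, 30400471 to 30415813 on GRCm38), moves short acyl groups between coenzyme A and carnitine. It was at 82, 79.4, 88.7 and 93.8 CPM at 16 weeks and 16.5, 16.1, 15.5 and 14.9 CPM at 104 weeks (log2 fold change -2.45 ± 0.19, adjusted p = 4.55e-09), a tight group at each age with no overlap. Fgf21, the hormone that liver secretes in fasting under PPARalpha, was at 4.56, 7.12, 5.69 and 4.87 CPM at 16 weeks and 0.665, 1.19, 0.471 and 0.8 CPM at 104 weeks (log2 fold change -2.83 ± 0.49, adjusted p = 0.000516). Core enzymes of mitochondrial oxidation, chosen for naming after their values were seen, had smaller falls. Acadm, the medium-chain dehydrogenase of mitochondria, was at 446, 329, 453 and 458 CPM at 16 weeks and 242, 234, 215 and 224 CPM at 104 weeks (log2 fold change -0.88 ± 0.11, adjusted p = 6.1e-06). Here, too, the ages did not overlap. Cpt1a, which admits long-chain fatty acids to mitochondria, was called (log2 fold change -0.66 ± 0.21, adjusted p = 0.0416), but the call was lost on leaving out each library in turn except 104-week replicate 4, with log2 fold changes between -0.70 and -0.60. Ppara itself, at 62.9, 82.5, 87.8 and 93.8 CPM at 16 weeks and 24.3, 36.4, 47.1 and 69.6 CPM at 104 weeks, fell by 0.88 on the log2 scale (SE 0.23, adjusted p = 0.0137). Its old libraries ranged from well below the young ones to just above the lowest of them.

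**Figure D2:**
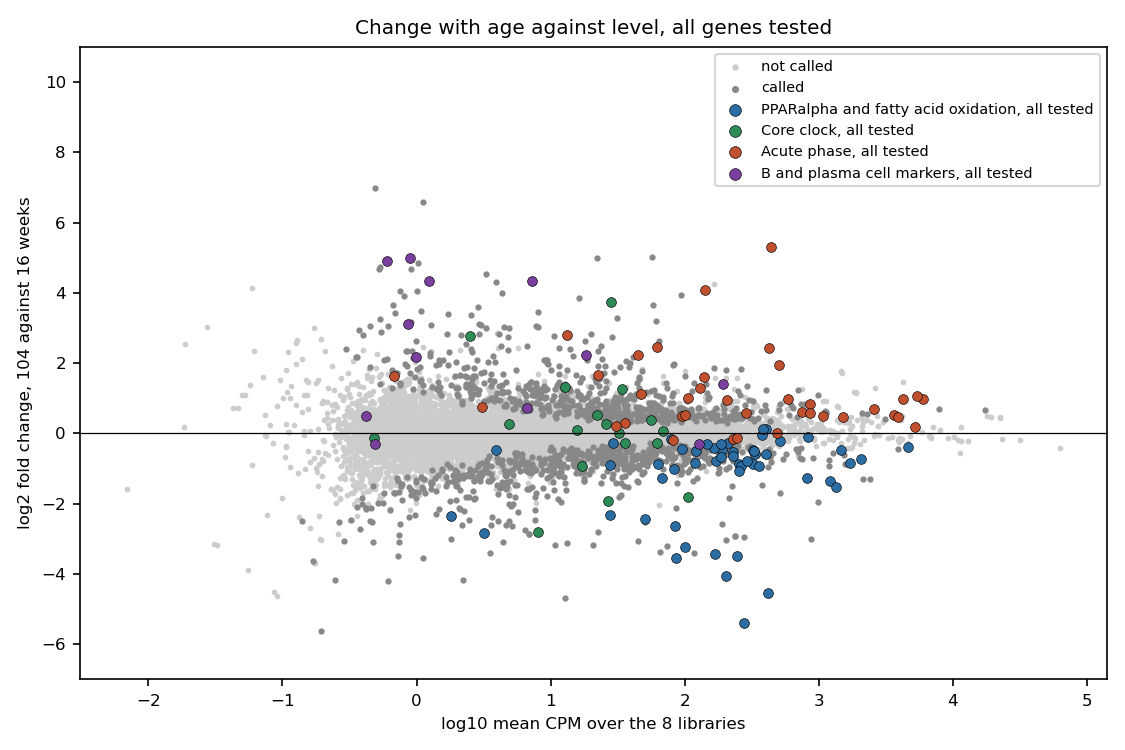
Log2 fold change at 104 against 16 weeks for each of the 12690 genes tested (vertical axis) against log10 of the mean CPM over the 8 libraries (horizontal axis). Coloured points are all tested members of 4 lists: nearly all members of the fatty acid oxidation list (blue) lie below 0, and most B and plasma cell markers (purple) lie above it. Fitted values of genes with 1 to 3 counts at one age depend on the fitting and are not bounds.

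Genes of lipid uptake and lipid droplets were partly lower. Of 23 tested members 1 was called higher and 7 lower (against 5.13% and 5% of all genes), and the median was -0.31. G0s2, an inhibitor of the triglyceride lipase ATGL, was at 244, 231, 247 and 139 CPM at 16 weeks and 1.33, 48.2, 8.08 and 23.2 CPM at 104 weeks (log2 fold change -3.41 ± 0.66, adjusted p = 0.00228). Its old libraries spanned a wide range but stayed below every young one, which the rule that named it required. Without 104-week replicate 2 the log2 fold change of G0s2 was -4.31, adjusted p = 0.000686. Cd36, a fatty acid translocase, was at 99.6, 48.1, 80.5 and 117 CPM at 16 weeks and 15.4, 4.11, 28.7 and 11.7 CPM at 104 weeks (log2 fold change -2.52 ± 0.38, adjusted p = 0.000149). The ages did not overlap in Cd36. Mogat1, a monoacylglycerol acyltransferase, was at 7, 3.66, 7.36 and 9.66 CPM at 16 weeks and 1.08, 1.19, 1.48 and 1.09 CPM at 104 weeks (log2 fold change -2.50 ± 0.32, adjusted p = 1.18e-05), and Fitm2, which helps lipid droplets form, had log2 fold change -1.08 ± 0.23 (adjusted p = 0.00313). Among 24 lipogenesis genes 0 were called higher and 1 lower (0 lower without 16-week replicate 3 or 4, and 2 without 104-week replicate 3 or 16-week replicate 1), and its regulator Srebf1 was at 316, 195, 259 and 135 CPM at 16 weeks and 351, 185, 423 and 308 CPM at 104 weeks (log2 fold change 0.48 ± 0.42, adjusted p = 0.526). In cholesterol synthesis 4 of 25 tested members were called higher and 1 lower, and without 104-week replicate 1 the counts were 0 and 1. They were 2 and 1 when only the 8 libraries were fitted. Other left-out libraries also moved these counts, to 2 and 1 without 16-week replicate 1, 2 and 0 without 16-week replicate 2, 1 and 1 without 16-week replicate 4, 3 and 0 without 104-week replicate 3 or 16-week replicate 3, and 4 and 0 without 104-week replicate 4. Sqle, squalene epoxidase, was at 3.22, 3.46, 3.59 and 3.98 CPM at 16 weeks and 30.5, 18.7, 2.36 and 9.46 CPM at 104 weeks (log2 fold change 2.09 ± 0.52, adjusted p = 0.0129), so that 104-week replicate 3 lay below the young libraries. Without 104-week replicate 1 Sqle had log2 fold change 1.5, adjusted p = 0.0696.

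Many genes of drug metabolism in its first phase, the oxidations, were lower in old liver. Of 43 tested members of that list 1 was called higher and 19 lower (against 5% of all genes called lower), with a median of -0.41. The count of lower members was 18 or 19 on leaving out any 1 library, and the member called higher was called in 3 of those 8 fits. Cyp3a11, the main drug-oxidising cytochrome P450 of mouse liver and a target of the pregnane X receptor, was at 1807, 1306, 1508 and 1574 CPM in the 4 libraries at 16 weeks and 229, 173, 223 and 148 CPM at 104 weeks (log2 fold change -3.00 ± 0.23, adjusted p = 4.55e-09). Fmo2, a flavin-containing monooxygenase, was at 36.7, 38.5, 32.4 and 41 CPM at 16 weeks and 3.99, 2.69, 5.45 and 4.29 CPM at 104 weeks (log2 fold change -3.17 ± 0.24, adjusted p = 4.55e-09). Both genes had an old group that was narrow and several times lower than the young one. Cyp3a11 lies in a cluster of similar genes on chromosome 5 that can share reads, so its separate value is uncertain. Cyp2b9 was at 179, 122, 89.5 and 139.7 CPM at 16 weeks and 31.5, 4.51, 14.9 and 6.77 CPM at 104 weeks (log2 fold change -3.20 ± 0.50, adjusted p = 0.000293), with log2 fold change -3.93, adjusted p = 1.96e-05 without 104-week replicate 1. Nr1i2, which encodes the pregnane X receptor, had log2 fold change -0.34 ± 0.22 (adjusted p = 0.371). Among 48 tested genes of conjugation and the oxidative stress response 4 were called higher and 8 lower. Gsta3, a glutathione transferase (log2 fold change -0.76 ± 0.15, adjusted p = 0.00192), and Ephx2, the soluble epoxide hydrolase (-0.71 ± 0.14, adjusted p = 0.00147), were among the lower ones. By DESeq2 7 were higher. These 2 counts ranged from 0 to 5 higher and from 3 to 9 lower over the left-out libraries. The count of higher members was 0 without 104-week replicate 1, 1 without 104-week replicate 2 or 16-week replicate 2, 3 or 4 and 2 without 16-week replicate 1. The count of lower members was 3 without 104-week replicate 3 or 16-week replicate 1, 4 without 16-week replicate 3 and 5 without 104-week replicate 2 or 4.

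Genes that are higher in female than in male mouse liver were lower in these old males, and some male-biased genes were higher. In the female-biased list 18 of 40 tested members were called lower and 3 higher (median -0.77), and in the male-biased list 14 of 39 were called higher and 2 lower (median 0.83). The lists overlap others, since of the 18 lower female-biased genes 3 are also in the fatty acid oxidation list and 9 in the drug-metabolism list. The remaining 6 were Abcd2, Cux2, Cyp3a41b, Gstt3, Hao2 and Trim24, listed here after their values were seen. The 2 lower male-biased genes, Cyp4a12a and Cyp4a12b, are also in the fatty acid oxidation list. Cyp3a41b had nearly the same values as Cyp3a41a of the drug-metabolism list (log2 fold change -2.93 for each). The Cyp3a genes are similar copies that can share reads, so their calls are not separate evidence. Cux2, a transcription factor expressed in female liver, was at 9.11, 5.46, 5.93 and 5.21 CPM at 16 weeks and 0.748, 0.158, 0.942 and 0.509 CPM at 104 weeks (log2 fold change -3.41 ± 0.85, adjusted p = 0.0136). Cyp3a44 was at 597, 411, 474 and 479 CPM at 16 weeks and 76.4, 58.7, 71.6 and 47.4 CPM at 104 weeks (log2 fold change -2.95 ± 0.23, adjusted p = 7.28e-09). Old values of both genes did not reach the young ones, which for Cux2 the rule that named it required.

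On the male-biased side Serpina12, a secreted serpin also called vaspin, was at 69.6, 78.2, 77.4 and 60.7 CPM at 16 weeks and 232, 366, 217 and 218 CPM at 104 weeks (log2 fold change 1.85 ± 0.29, adjusted p = 0.000236). Susd4, a complement inhibitor, was at 6.06, 6.52, 4.19 and 8.02 CPM at 16 weeks and 14.5, 20.2, 15.7 and 17.3 CPM at 104 weeks (log2 fold change 1.45 ± 0.20, adjusted p = 4.1e-05). C8b, a chain of the terminal complement complex, had log2 fold change 0.96 ± 0.19 (adjusted p = 0.00149). Moxd1, a copper monooxygenase-like gene, had 1 count over the 4 young libraries and 123 over the old, a ratio of 148.5 with a 95% interval from 26.2 to 5913 that covers counting error only. With Moxd1 at that ratio the median of the list was 0.83. The count of higher members was 9 without 104-week replicate 2 or without 16-week replicate 1. Major urinary proteins, the male-biased pheromone carriers, gave no call for their first member Mup1, at 894, 1127, 1224 and 1301 CPM at 16 weeks and 2295, 3747, 2048 and 2104 CPM at 104 weeks (log2 fold change 1.17 ± 0.66, adjusted p = 0.293), and these genes are near-identical copies. Of 26 tested growth hormone signalling genes 2 were called higher and 1 lower, a share near the 10.1% of all genes. There was 1 higher without 104-week replicate 2 and 2 lower without 104-week replicate 3, 4 higher by DESeq2, and 4 higher and 2 lower when only the 8 libraries were fitted. Ghr, the growth hormone receptor (log2 fold change 0.10 ± 0.16, adjusted p = 0.752), and Igf1 (log2 fold change 0.12 ± 0.14, adjusted p = 0.661) were not called. Igfals, which holds IGF1 in the circulation, was at 222, 192, 178 and 173 CPM at 16 weeks and 99.6, 104, 108 and 153 CPM at 104 weeks (log2 fold change -0.72 ± 0.18, adjusted p = 0.0106). Igfbp2, an IGF-binding protein, was at 109.7, 106, 106 and 78.3 CPM at 16 weeks and 205, 300.2, 125 and 191 CPM at 104 weeks (log2 fold change 1.04 ± 0.28, adjusted p = 0.0208), a call lost without 104-week replicate 2 (0.79, adjusted p = 0.0921) or 16-week replicate 4 (0.94, adjusted p = 0.0717).

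Core clock genes were shifted in both directions, with Arntl, Clock and Cry1 among those lower and Nr1d1 and Bhlhe41 among those higher. Of 18 tested members 3 were called higher and 4 lower, and these counts stood within 1.5 times of this on leaving out each library. The promoters of 3 of the called members carry the letters of elements through which the clock factors are known to act, and are shown for that reason. Cry1 and Bhlhe41 hold the E-box CACGTG to which CLOCK and BMAL1 bind, and Arntl holds TAGGTCA, the element of the REV-ERB receptors. Capitals mark these letters. The sequences are those of RefSeq on GRCm38.p6, 5′ to 3′ on the strand of the gene. For Cry1 (chr10:85185055-85185304, minus strand) and Bhlhe41 (chr6:145865421-145865670, minus strand) they are the 250 bases before the start, and for Arntl (chr7:113207529-113207558, plus strand) 30 bases around the letters, which lie 30 bases after one of its starts.

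Cry1: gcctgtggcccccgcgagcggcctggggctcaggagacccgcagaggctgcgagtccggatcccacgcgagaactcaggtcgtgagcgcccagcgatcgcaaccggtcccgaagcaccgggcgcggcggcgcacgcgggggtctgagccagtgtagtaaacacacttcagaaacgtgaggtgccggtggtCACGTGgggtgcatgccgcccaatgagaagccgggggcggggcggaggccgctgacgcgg

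Bhlhe41: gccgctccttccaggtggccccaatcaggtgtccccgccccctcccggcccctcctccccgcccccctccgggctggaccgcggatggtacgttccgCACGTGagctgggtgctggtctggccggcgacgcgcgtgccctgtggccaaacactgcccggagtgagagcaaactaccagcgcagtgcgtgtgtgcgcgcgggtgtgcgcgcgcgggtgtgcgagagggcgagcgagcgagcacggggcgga

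Arntl: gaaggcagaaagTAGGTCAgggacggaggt

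Searched on both strands from 250 bases before to 50 after the start, CACGTG was found in 7.15% of the 32851 RefSeq promoters and TAGGTCA in 2.61%. Among the 12763 promoters of tested genes the shares were 9.67% and 2.08%. CACGTG was in 8.84% of promoters of genes called higher and 7.4% of those called lower, and TAGGTCA in 1.83% and 2.93%. In the core clock list 4 of 14 members with a promoter entry held the E-box letters, of which Cry1 and Bhlhe41 were called, and 2 held TAGGTCA, of which Arntl was called. Other letters were searched too. The D-box letters TTANGTAA were in 1 of the 14, which was not called. The PPAR-type letters AGGNCANAG were in 4 of 41 fatty acid oxidation genes and in 1 of the 27 called ones, against 7.95% of promoters of tested genes. The NF-kB letters GGGNNTTCC were in 3 of 31 acute-phase genes, all of them called. Such a match is a description of the letters and does not show that a factor bound there.

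Arntl encodes BMAL1, the partner of CLOCK, and was at 10.2, 15.9, 11 and 19.2 CPM in the 4 libraries at 16 weeks and 2.24, 1.98, 2.56 and 1.16 CPM at 104 weeks (log2 fold change -2.82 ± 0.28, adjusted p = 2.43e-07). Every old library lay below every young one. Cry1, whose protein represses CLOCK and BMAL1, was at 36.1, 49.1, 39.5 and 44.1 CPM at 16 weeks and 10.8, 10.8, 10.6 and 11.8 CPM at 104 weeks (log2 fold change -1.94 ± 0.18, adjusted p = 1.38e-07), with old libraries that barely differed from each other. Clock was called (log2 fold change -0.93 ± 0.28, adjusted p = 0.0326), but the call was lost without 104-week replicate 1 or 2 or 16-week replicate 2, 3 or 4, with log2 fold changes between -0.92 and -0.73. In the other direction Nr1d1, which encodes the repressor REV-ERBalpha, stood at 6.45, 2.66, 4.07 and 2.33 CPM at 16 weeks and 49.1, 53.1, 63.1 and 45.3 CPM at 104 weeks (log2 fold change 3.75 ± 0.40, adjusted p = 1.85e-06). Each old value was at least 45.3 CPM and no young value exceeded 6.45 CPM. Bhlhe41, which encodes the repressor DEC2 and was chosen for naming after its values were seen, was at 0.0556, 0.532, 1.26 and 0.685 CPM at 16 weeks and 1.5, 4.59, 4.85 and 6.48 CPM at 104 weeks (log2 fold change 2.78 ± 0.61, adjusted p = 0.00429). Without 16-week replicate 3 it had log2 fold change 3.39, adjusted p = 0.00396. The period genes Per1 and Per2 were not called: Per2 was at 88.2, 63, 65 and 53.5 CPM at 16 weeks and 70.5, 41.3, 53 and 58.6 CPM at 104 weeks (log2 fold change -0.27 ± 0.20, adjusted p = 0.431), and Per1, named after its values were seen, had log2 fold change 0.37 ± 0.48 (adjusted p = 0.694).

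Among clock outputs 5 of 25 tested members were called higher and 4 lower. Dbp, a transcription factor driven by the E-box, was at 17.9, 8.05, 15.1 and 6.58 CPM at 16 weeks and 75.8, 145, 62 and 159 CPM at 104 weeks (log2 fold change 3.21 ± 0.39, adjusted p = 1.27e-05), with no overlap between the ages. Nampt, which makes the NAD precursor nicotinamide mononucleotide, was at 107, 84.3, 91.4 and 82.9 CPM at 16 weeks and 37.4, 43.9, 37.2 and 62.9 CPM at 104 weeks (log2 fold change -1.01 ± 0.19, adjusted p = 0.00119). Lonrf3, whose promoter also holds the E-box letters, fell (log2 fold change -1.16 ± 0.28, adjusted p = 0.00965). The count of higher outputs was 1 without 104-week replicate 1 or 16-week replicate 3, and 2 without 16-week replicate 2 or 4 or when only the 8 libraries were fitted. It was 3 without the filter on low counts. The hour at which each liver was taken is not given, and its part in these values was not tested.

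**Figure D3:**
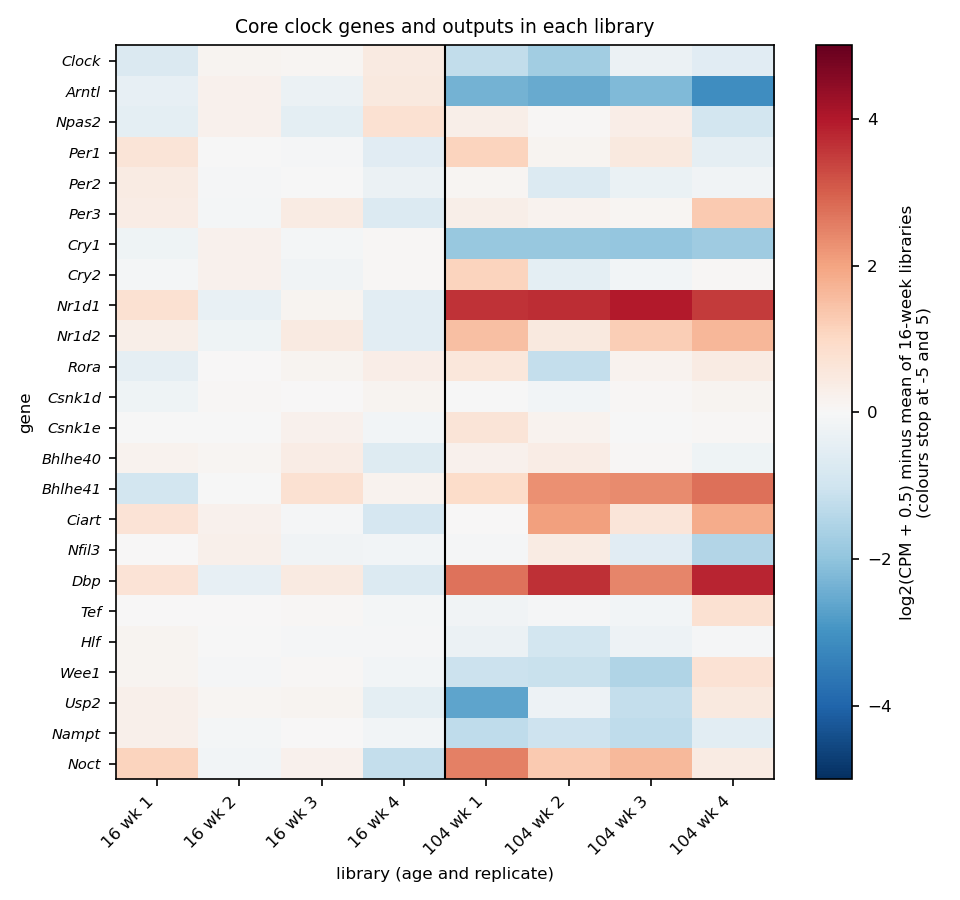
Level of core clock genes and of 7 clock outputs in each of the 8 libraries, as log2(CPM + 0.5) minus the mean of the 4 libraries at 16 weeks (red higher, blue lower, colours stop at -5 and 5). Arntl and Cry1 are blue and Nr1d1 and Dbp red in all 4 old libraries, while Per1 and Per2 stay near the young mean.

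Of 24 tested bile acid genes 4 were called higher and 3 lower (against 5.13% and 5% of all genes), with a median near 0, and 2 were higher without 16-week replicate 2. Cyp8b1, the sterol 12alpha-hydroxylase that sets the share of cholic acid, was at 309, 255, 391 and 348 CPM at 16 weeks and 89.5, 34.4, 64.9 and 30.0 CPM at 104 weeks (log2 fold change -2.57 ± 0.46, adjusted p = 0.00102). Cyp2c70, which makes the muricholic acids of rodents, was at 319, 567, 333 and 469 CPM at 16 weeks and 947, 1234, 1007 and 767 CPM at 104 weeks (log2 fold change 1.23 ± 0.21, adjusted p = 0.000481). These 2 enzymes moved in opposite directions, each without overlap between the ages. Akr1d1, a reductase of the pathway, had log2 fold change -1.17 ± 0.20 (adjusted p = 0.000486), and Abcc3, an exporter of bile acid conjugates, -1.29 ± 0.21 (adjusted p = 0.000206). Cyp7a1, the rate-limiting enzyme of the classical pathway, chosen for naming after its values were seen, was at 122, 91.2, 104 and 97.2 CPM at 16 weeks and 3.58, 2.29, 79.3 and 15.4 CPM at 104 weeks (log2 fold change -2.03 ± 0.81, adjusted p = 0.123). The old library of replicate 3 lay near the young ones and the other old ones far below, and without 104-week replicate 3 Cyp7a1 had log2 fold change -3.85, adjusted p = 0.00349.

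Acute-phase genes, which hepatocytes make under interleukin 6 and related cytokines, were higher in part. Of 37 tested members 14 were called higher and 0 lower (median 0.84), against a background of 5.13% called higher. The count was 5 without 104-week replicate 2 or without 16-week replicate 1, 7 without 16-week replicate 3 and 8 without 104-week replicate 3 or 16-week replicate 4 or without the filter on low counts. Socs3, which cytokine signalling induces and which damps it, was at 2.89, 3.66, 2.33 and 4.45 CPM at 16 weeks and 19.4, 23.1, 40.5 and 9.6 CPM at 104 weeks (log2 fold change 2.80 ± 0.45, adjusted p = 0.000254). Il1r1, the interleukin 1 receptor, was at 15.8, 33.5, 12 and 15.6 CPM at 16 weeks and 143, 95.3, 104 and 81.6 CPM at 104 weeks (log2 fold change 2.47 ± 0.50, adjusted p = 0.00317). Steap4, an inflammation-induced metalloreductase, was at 59.4, 80.9, 60.7 and 77.4 CPM at 16 weeks and 87.3, 355, 222 and 177 CPM at 104 weeks (log2 fold change 1.59 ± 0.33, adjusted p = 0.00298). In all 3 genes every old library was above every young one. Fgb, the fibrinogen beta chain (log2 fold change 1.07 ± 0.25, adjusted p = 0.00676), and Apcs, serum amyloid P (log2 fold change 1.28 ± 0.28, adjusted p = 0.00529), were called too. Il6ra, the interleukin 6 receptor, was not (log2 fold change 0.29 ± 0.35, adjusted p = 0.667).

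The most inducible acute-phase genes, named after their values were seen, varied widely between libraries of one age. Saa2, a serum amyloid A, was at 17.3, 388, 53.7 and 75.5 CPM at 16 weeks and 14.5, 2353, 448 and 64.5 CPM at 104 weeks (log2 fold change 2.43 ± 1.25, adjusted p = 0.242). Lcn2, lipocalin 2, was at 3.06, 43, 5.87 and 11.2 CPM at 16 weeks and 8.48, 149.9, 123 and 11.4 CPM at 104 weeks (log2 fold change 2.22 ± 0.90, adjusted p = 0.129). Both were highest in 104-week replicate 2 and no higher than the young range in replicates 1 and 4. Without 16-week replicate 2, the highest young library, Lcn2 had log2 fold change 3.46, adjusted p = 0.0361 and Saa2 3.88, adjusted p = 0.11, and without 104-week replicate 2 they had 1.59, adjusted p = 0.321 and 0.38, adjusted p = 0.882. Mt2, a metallothionein that binds zinc and copper, was at 3.28, 40.1, 6.94 and 37.3 CPM at 16 weeks and 925, 1320.3, 1178 and 8.08 CPM at 104 weeks (log2 fold change 5.30 ± 1.69, adjusted p = 0.0535). It was far above the young libraries in 3 old libraries and within their range in 104-week replicate 4, without which the log2 fold change was 5.71, adjusted p = 0.0266. In the chemokine list 2 of 18 tested members were called higher and 1 lower, and the count of higher members was 1 without any of 104-week replicates 1 and 2 and 16-week replicates 1, 2 and 3. It was also 1 without the filter on low counts or when only the 8 libraries were fitted. Cxcl1, a neutrophil attractant, was at 1.28, 1.13, 0.599 and 2.4 CPM at 16 weeks and 50.9, 73.7, 29.1 and 17.3 CPM at 104 weeks (log2 fold change 4.99 ± 0.53, adjusted p = 1.96e-06). Socs1, another inhibitor of cytokine signalling, was at 0.278, 0.399, 0.0599 and 0.343 CPM at 16 weeks and 8.4, 5.61, 9.83 and 1.67 CPM at 104 weeks (log2 fold change 4.54 ± 0.60, adjusted p = 1.89e-05). Both rose in all 4 old libraries, by different amounts. The interferon list gave 3 of 47 tested members called higher and 0 lower (median 0.03), with 1 higher without 104-week replicate 1 or 16-week replicate 3 and 0 without 104-week replicate 2 or 3 or 16-week replicate 4. It was 1 without the filter on low counts or when only the 8 libraries were fitted. In antigen presentation 0 of 24 were called by edgeR, 10 were higher at an unadjusted p under 0.05, and 2 were called higher by DESeq2 or when only the 8 libraries were fitted.

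Immediate-early transcription factors, which are induced within minutes of a stimulus, were high above all in 1 old library. Of 21 tested members 10 were called higher and 0 lower (median 1.46). Without 104-week replicate 1 the count was 3 and the median 0.41, and it was 3 without 16-week replicate 1 and 4 without 16-week replicate 2 or 3. When only the 8 libraries were fitted 2 of 20 were called, and without the filter on low counts 7 of 25. Egr1, chosen after its values were seen, was at 1.44, 2, 2.93 and 7.33 CPM at 16 weeks and 426, 1.34, 12 and 4.87 CPM at 104 weeks (log2 fold change 5.03 ± 1.34, adjusted p = 0.022). Btg2, an antiproliferative factor, was at 1.83, 1.73, 1.2 and 3.7 CPM at 16 weeks and 109, 3.64, 7.4 and 1.82 CPM at 104 weeks (log2 fold change 3.85 ± 0.90, adjusted p = 0.0088). Fos was at 0.5, 0.333, 0.659 and 3.63 CPM at 16 weeks and 23.9, 1.27, 1.35 and 0.946 CPM at 104 weeks (log2 fold change 2.43 ± 0.84, adjusted p = 0.072). In each of the 3 genes 104-week replicate 1 stood alone. Without it Egr1 had log2 fold change 0.83, adjusted p = 0.608, Btg2 1.03, adjusted p = 0.143 and Fos -0.10, adjusted p = 0.955. The Egr1 call was also lost without 16-week replicate 1, 2 or 3 (adjusted p between 0.0646 and 0.0687), and its log2 fold change was 5.70, adjusted p = 0.038 without 16-week replicate 4. Fos was called without 104-week replicate 2, 3 or 4 or 16-week replicate 4, with log2 fold changes between 2.77 and 3.75.

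Other members were higher in all old libraries. Junb, a partner in the AP-1 factor, was at 8.56, 8.65, 5.87 and 11 CPM at 16 weeks and 255, 75.6, 65.3 and 30.6 CPM at 104 weeks (log2 fold change 3.64 ± 0.53, adjusted p = 0.000132), with log2 fold change 2.74, adjusted p = 8.43e-05 without 104-week replicate 1. Maff, a small MAF factor, was at 1.17, 1.93, 1.62 and 2.33 CPM at 16 weeks and 36.1, 6.17, 10.4 and 5.24 CPM at 104 weeks (log2 fold change 3.04 ± 0.56, adjusted p = 0.00106), with 2.04, adjusted p = 0.00383 without that library. Both stayed called and higher in the remaining 3 old libraries. Myc was at 4.28, 3.06, 2.93 and 18.6 CPM at 16 weeks and 69, 24.5, 47 and 19.7 CPM at 104 weeks (log2 fold change 2.48 ± 0.68, adjusted p = 0.0237). Its call was lost without 104-week replicate 1 (2.07, adjusted p = 0.0843) or 16-week replicates 1, 2 or 3 (log2 fold changes between 2.22 and 2.27), and without 16-week replicate 4, the highest young library, it was 3.54, adjusted p = 0.00332. The handling of 104-week replicate 1 is not described, and its part in these values was not tested.

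**Figure D4:**
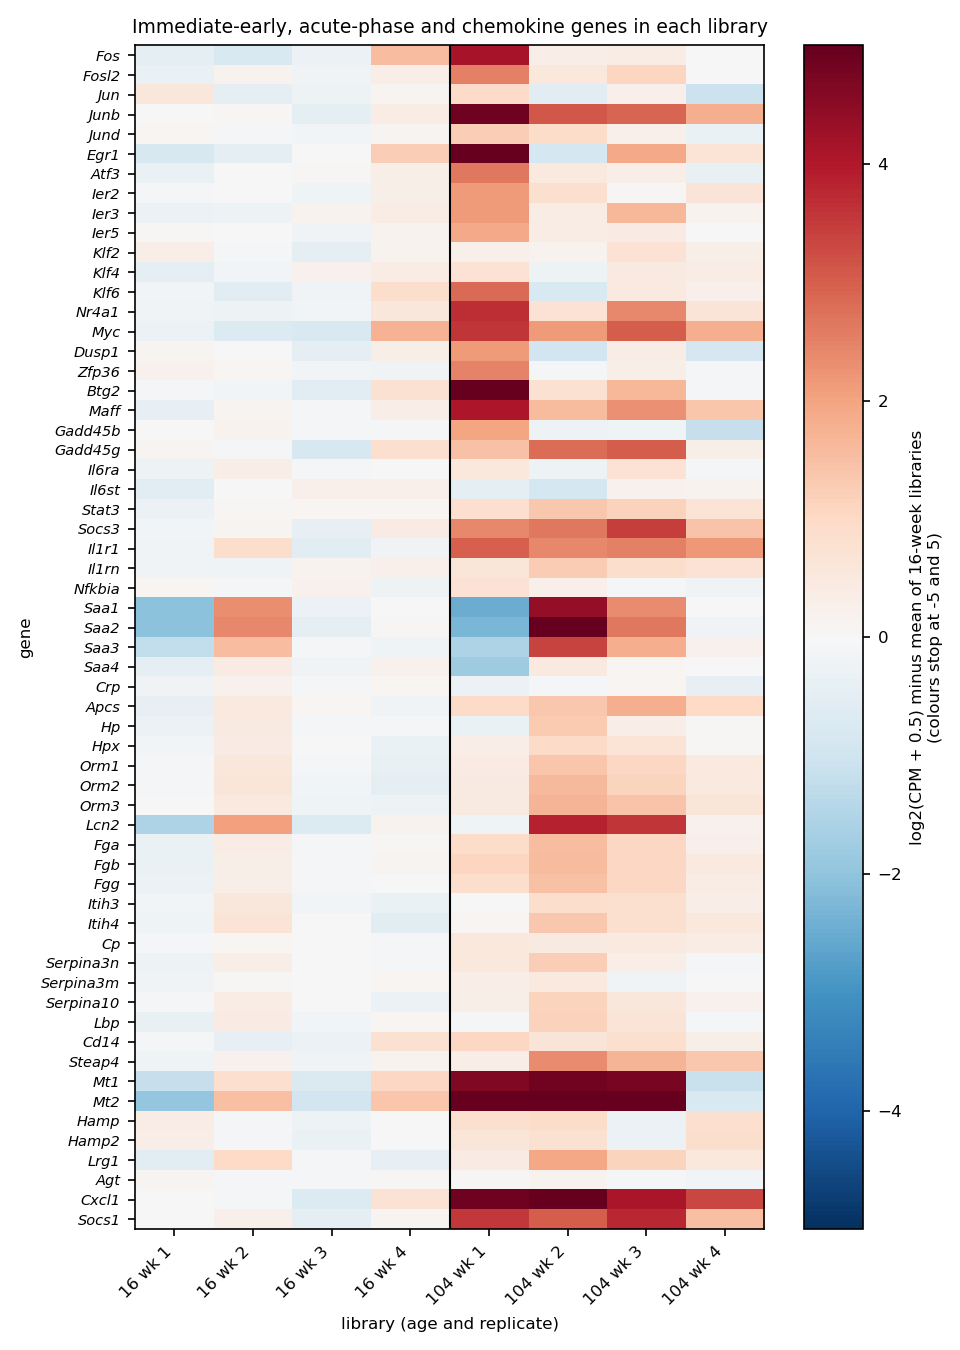
Level of each tested immediate-early and acute-phase gene, and of Cxcl1 and Socs1, in each of the 8 libraries, as log2(CPM + 0.5) minus the mean of the 4 libraries at 16 weeks (red higher, blue lower, colours stop at -5 and 5). Most immediate-early genes in the upper rows are reddest in 104-week replicate 1, while Saa1, Saa2 and Lcn2 are reddest in 104-week replicate 2.

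Transcripts of antibody-producing cells were higher in old liver. Of 12 tested B and plasma cell markers (of 32 listed) 8 were called higher and 0 lower, median log2 fold change 2.20, and 2.20 with the genes of 3 or fewer young counts at their ratio. The filter on low counts works by group, so genes near 0 in young liver could pass through the old libraries alone. Without this filter 10 of 31 were called higher and 0 lower, with a median of 1.43. Summed over all listed genes, levels were 247 to 280.2 CPM at 16 weeks and 369 to 546 CPM at 104 weeks. Xbp1, given below, made up a large part of this sum, and hepatocytes also express it. The sum is thus not a level of antibody-producing cells alone. Tnfrsf17, which encodes the plasma cell receptor BCMA, was at 0 in all 8 libraries. Ighg2b, a heavy chain constant region, was at 0, 0.0665, 0.239 and 0.137 CPM at 16 weeks and 2.66, 3.56, 1.28 and 1.89 CPM at 104 weeks (log2 fold change 4.32 ± 0.74, adjusted p = 0.000385), with 5.03, adjusted p = 0.00106 without 16-week replicate 3. Jchain, which joins antibody units, was at 0.111, 0.0665, 0 and 0.548 CPM at 16 weeks and 1.66, 1.82, 1.21 and 1.53 CPM at 104 weeks (log2 fold change 3.10 ± 0.58, adjusted p = 0.00096), with 4.52, adjusted p = 8.05e-05 without 16-week replicate 4. No old library overlapped the young ones in either gene or in Igkc, the kappa light chain (log2 fold change 4.35 ± 0.51, adjusted p = 4.35e-06). Ighg2c had 3 counts over the young and 89 over the old libraries, a ratio of 35.8 (95% counting interval 11.9 to 177). Xbp1, a factor of secretory cells that hepatocytes also express, was at 98.3, 110.4, 101 and 114 CPM at 16 weeks and 352, 329, 193 and 255 CPM at 104 weeks (log2 fold change 1.41 ± 0.18, adjusted p = 1.25e-05). In bulk tissue, more cells of a type and more RNA per cell cannot be told apart.

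Some markers of neutrophils and macrophages were higher as well. Of the neutrophil markers 6 of 21 listed were tested, and 3 were called higher. Without the filter on low counts 5 of 21 were. S100a8, a calcium-binding protein of neutrophils, was at 0, 0.266, 0.239 and 0.206 CPM at 16 weeks and 2.49, 1.74, 1.08 and 1.24 CPM at 104 weeks (log2 fold change 3.18 ± 0.60, adjusted p = 0.00109). S100a9 was at 0.389, 0.2, 0.18 and 0.274 CPM at 16 weeks and 3.41, 2.93, 1.01 and 1.89 CPM at 104 weeks (log2 fold change 3.09 ± 0.60, adjusted p = 0.00136). Csf3r, the G-CSF receptor, was at 1.11, 0.466, 1.08 and 1.23 CPM at 16 weeks and 4.74, 3.72, 3.1 and 2.69 CPM at 104 weeks (log2 fold change 1.86 ± 0.36, adjusted p = 0.00131). The ages did not overlap in these 3 genes. Ngp and Stfa2l1, further neutrophil markers, were at 0 in all 8 libraries, and levels summed over the list ranged 17.3 to 57.5 CPM at 16 weeks and 29 to 174 CPM at 104 weeks. This sum includes Lcn2, named above as an acute-phase gene, which made up most of its highest values. The sum is thus not a level of neutrophils alone. Of 29 tested macrophage and Kupffer cell markers 5 were called higher and 0 lower (median 0.63), and 3 without 104-week replicate 3 or 4 or 16-week replicate 1, 2 or 3. By DESeq2 8 were higher. Marco, a scavenger receptor of resident macrophages, was at 0.834, 0.931, 0.299 and 0.48 CPM at 16 weeks and 9.23, 1.42, 4.17 and 6.91 CPM at 104 weeks (log2 fold change 3.07 ± 0.58, adjusted p = 0.00133). Lyz2, lysozyme, was at 3.95, 6.79, 6.11 and 11.7 CPM at 16 weeks and 16.4, 13.8, 24.7 and 19.9 CPM at 104 weeks (log2 fold change 1.40 ± 0.27, adjusted p = 0.00152). Cd5l, a secreted macrophage protein, was at 10.2, 15.2, 13.8 and 12.7 CPM at 16 weeks and 23.8, 17.5, 52 and 38.2 CPM at 104 weeks (log2 fold change 1.34 ± 0.29, adjusted p = 0.00342). All 3 were higher in every old library than in any young one. The general macrophage markers Cd68 (log2 fold change 0.72 ± 0.24, adjusted p = 0.0533) and Adgre1 (log2 fold change 0.66 ± 0.31, adjusted p = 0.187) were not called, though Cd68 was without 16-week replicate 4 (0.90, adjusted p = 0.0277). Of 7 tested dendritic cell markers 2 were called higher, with 0 without 104-week replicate 3 or 16-week replicate 3. The count was 1 without the filter on low counts, when only the 8 libraries were fitted, or without any other library except 104-week replicate 4. For T and NK cells 6 of 35 listed markers were tested, with 0 called by edgeR or DESeq2 and 0 at an unadjusted p under 0.05.

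Among markers of the other liver cells, some endothelial genes were called lower, in a number that depended on the libraries fitted. Over all genes 5.13% were called higher and 5% lower. Of 30 endothelial markers 0 were called higher and 5 lower (median -0.34), a count of 1 without 104-week replicate 1 or 2 or 16-week replicate 2 or 4 and of 2 without 104-week replicate 3 or 16-week replicate 3. It was 3 without the filter on low counts and 1 when only the 8 libraries were fitted. A count of 1 is no larger a share than that of all genes. Clec14a, an endothelial lectin, was at 3.11, 4.59, 4.07 and 5.35 CPM at 16 weeks and 1.16, 1.66, 1.62 and 2.98 CPM at 104 weeks (log2 fold change -1.19 ± 0.27, adjusted p = 0.00554), while Pecam1, a general endothelial marker, had log2 fold change -0.09 ± 0.27 (adjusted p = 0.871), and 0.053 without 104-week replicate 1 and 0.063 without 16-week replicate 4. Of 37 stellate cell and matrix genes 1 was called higher and 1 lower (median -0.04), and each count ran from 0 to 2 over the left-out libraries. Col3a1, a fibrillar collagen, was at 16.6, 19.8, 14.4 and 52.3 CPM at 16 weeks and 5.49, 14.7, 10.2 and 9.39 CPM at 104 weeks (log2 fold change -1.37 ± 0.35, adjusted p = 0.014), and 16-week replicate 4 was well above the other young libraries. Without it Col3a1 had log2 fold change -0.76, adjusted p = 0.091, and without 104-week replicate 1 -1.18, adjusted p = 0.0529. Col1a1 had -1.33 ± 0.51 (adjusted p = 0.1), with -0.34, adjusted p = 0.691 without the same young library and -1.92, adjusted p = 0.033 without 104-week replicate 2. Lrat, the retinol esterifying enzyme of quiescent stellate cells, was not called (log2 fold change -0.45 ± 0.43, adjusted p = 0.56). Of 19 cholangiocyte and progenitor markers 2 were called higher and 1 lower. The count of higher members was 1 without 104-week replicate 1 or 2 or 16-week replicate 1, 2 or 3 or without the filter on low counts, and 0 when only the 8 libraries were fitted. Krt23 fell, at 6.34, 1.2, 2.93 and 2.47 CPM at 16 weeks and 0.499, 0.633, 0.202 and 0.291 CPM at 104 weeks (log2 fold change -3.01 ± 0.52, adjusted p = 0.000483), and Krt18, a keratin of all liver epithelia, was at 60.7, 63.6, 81.4 and 159 CPM at 16 weeks and 612, 318, 232 and 105 CPM at 104 weeks (log2 fold change 1.80 ± 0.38, adjusted p = 0.00427).

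Cytosolic ribosomal protein genes were shifted upward by a small amount. All 78 tested members had a positive log2 fold change (median 0.39), and 21 were called higher and 0 lower. A shared sign was not particular to this list and was not tested. Of the nuclear-encoded oxidative phosphorylation genes 67 of 74 were negative, and of the mitochondrial DNA genes 13 of 13, with 0 called in either list. Without 104-week replicate 2 the number called was 3 of 78, a share near that of all genes in the same fit (492 of 12840). It was 8 of 80 without the filter on low counts, 9 without 104-week replicate 1, and 13, 8, 4 and 5 without 16-week replicates 1, 2, 3 and 4. Rpl27a, of the large subunit, was at 195, 186, 167 and 174 CPM at 16 weeks and 272, 329, 266 and 249 CPM at 104 weeks (log2 fold change 0.63 ± 0.13, adjusted p = 0.00272). Rpl3 was at 225, 200.0, 195 and 172 CPM at 16 weeks and 277, 334, 269 and 247 CPM at 104 weeks (log2 fold change 0.51 ± 0.12, adjusted p = 0.00846). In both genes the ages did not overlap, and the highest old library was 104-week replicate 2. Rps6, of the small subunit, was called (log2 fold change 0.48 ± 0.12, adjusted p = 0.0115), but not without 104-week replicate 2 (0.41, adjusted p = 0.054). Many of these genes have processed pseudogenes that can share reads. Of 43 genes of ribosome biogenesis 2 were called higher and 0 lower (6 higher without 104-week replicate 4, 1 without 104-week replicate 1 or 16-week replicate 1, 2 or 3, 4 by DESeq2 and 5 when only the 8 libraries were fitted), among them Rrp9, a U3 RNA-binding protein (log2 fold change 1.05 ± 0.21, adjusted p = 0.00162). Of 77 mitochondrial ribosomal proteins 0 were called higher and 1 lower (median 0.01). The lower call was lost without the filter on low counts, when only the 8 libraries were fitted, and on leaving out each library in turn except 104-week replicate 2, and 1 was higher without 104-week replicate 3. Of 74 nuclear-encoded genes of oxidative phosphorylation 0 were called higher and 0 lower by edgeR (median -0.12), with 0 higher and 7 lower at an unadjusted p under 0.05, 0 and 1 by DESeq2, and 0 and 2 without 104-week replicate 2.

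In amino acid metabolism several methionine cycle genes were lower. Of 17 tested members 1 was called higher and 5 lower (median -0.19). Bhmt, which remethylates homocysteine from betaine, was at 2521, 3408, 2744 and 4985 CPM at 16 weeks and 1452, 1102, 2159 and 814 CPM at 104 weeks (log2 fold change -1.31 ± 0.25, adjusted p = 0.00111). Ahcy, which releases homocysteine, was at 2133, 2042, 2032 and 2109 CPM at 16 weeks and 1132, 1218, 959 and 1263 CPM at 104 weeks (log2 fold change -0.86 ± 0.15, adjusted p = 0.000443). Old values of these 2 enzymes were all below the young ones. The member called higher was Cbs, which draws homocysteine into cysteine synthesis, at 230.3, 251, 206 and 200.1 CPM at 16 weeks and 429.8, 462, 480.3 and 321 CPM at 104 weeks (log2 fold change 0.93 ± 0.15, adjusted p = 0.000274). It did not overlap between the ages, and the member count was 2 higher without 16-week replicate 1. Etnppl, phosphoethanolamine phospho-lyase, was at 188, 101, 158 and 111 CPM at 16 weeks and 27.9, 36.4, 31.2 and 32.1 CPM at 104 weeks (log2 fold change -2.12 ± 0.33, adjusted p = 0.000232), and Gldc, of the glycine cleavage system, fell (log2 fold change -0.95 ± 0.19, adjusted p = 0.00184). Asns, asparagine synthetase and a target of the stress factor ATF4, was near 0 in young liver, at 0, 0.0665, 0.299 and 0 CPM at 16 weeks and 0.499, 1.98, 1.28 and 1.24 CPM at 104 weeks (log2 fold change 3.64 ± 0.76, adjusted p = 0.00288), with 5.44, adjusted p = 0.00125 without 16-week replicate 3. Of 21 urea cycle and nitrogen genes 1 was called higher (0 when only the 8 libraries were fitted) and 2 lower, and Cps1, the first enzyme of the cycle, was not called (log2 fold change 0.38 ± 0.14, adjusted p = 0.0789). In glucose metabolism Pfkfb3, which makes an activator of glycolysis, was at 6.72, 9.05, 5.33 and 8.5 CPM at 16 weeks and 34.2, 28.9, 55.7 and 31.4 CPM at 104 weeks (log2 fold change 2.35 ± 0.29, adjusted p = 9.51e-06).

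A part of the cell division genes was lower in old liver. Of 40 tested proliferation genes 2 were called higher and 7 lower (median -0.97), and 4 lower without 104-week replicate 1 or without 16-week replicate 1. By DESeq2 11 were lower. The count of higher members was 1 without 104-week replicate 1 or 16-week replicate 3 or 4 or when only the 8 libraries were fitted. Cdk1, the mitotic kinase, was at 2.22, 2.13, 1.44 and 0.754 CPM at 16 weeks and 0.416, 0.316, 0.0673 and 0.509 CPM at 104 weeks (log2 fold change -2.32 ± 0.48, adjusted p = 0.00271). Mcm5, of the replicative helicase, was at 8.11, 3.46, 3.53 and 1.64 CPM at 16 weeks and 0.915, 1.34, 1.35 and 0.946 CPM at 104 weeks (log2 fold change -1.88 ± 0.41, adjusted p = 0.00399). Neither gene overlapped between the ages. Against this direction Ccne1, cyclin E1 of the G1/S transition, was at 2.28, 0.798, 1.32 and 0.822 CPM at 16 weeks and 2.83, 11.1, 4.11 and 6.33 CPM at 104 weeks (log2 fold change 2.19 ± 0.44, adjusted p = 0.00174). The other member called higher was Rrm2. Outside the list, E2f7, a repressor of E2F targets, was higher too. It was at 0.611, 2.2, 1.44 and 1.1 CPM at 16 weeks and 15.5, 17.9, 8.41 and 17 CPM at 104 weeks (log2 fold change 3.46 ± 0.45, adjusted p = 1.54e-05). Both Ccne1 and E2f7 were higher in each old library. Mki67, the marker of cycling cells, was not called (log2 fold change -1.24 ± 0.45, adjusted p = 0.0829), except without 104-week replicate 3 (-1.73, adjusted p = 0.0281).

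Of 36 tested markers of senescence and p53 activity 2 were called higher and 3 lower (median -0.21), and 1 and 2 without 104-week replicate 1. These shares are near those of all genes, 5.13% and 5%. By DESeq2 3 were higher and 5 lower, and when only the 8 libraries were fitted 0 were higher. The higher ones were Btg2, given above with its dependence on 104-week replicate 1 (log2 fold change 1.03, adjusted p = 0.143 without it), and Plaur, the urokinase receptor, at 0.389, 0.399, 0.299 and 0.548 CPM at 16 weeks and 7.65, 2.77, 0.74 and 0.655 CPM at 104 weeks (log2 fold change 2.82 ± 0.60, adjusted p = 0.00312), with 1.73, adjusted p = 0.0408 without that library. Cdkn1a, the p53-induced cell cycle inhibitor p21, was at 8.06, 20.5, 8.98 and 15.6 CPM at 16 weeks and 15.5, 6.48, 15.6 and 1.53 CPM at 104 weeks (log2 fold change -0.44 ± 0.56, adjusted p = 0.689), so that the ages overlapped. Gdf15, a stress hormone (log2 fold change -1.10 ± 0.44, adjusted p = 0.126), and Trp53 (log2 fold change 0.32 ± 0.19, adjusted p = 0.302) were not called. Cdkn2a, which encodes the senescence marker p16, had 38 counts over the 8 libraries and did not pass the filter. Of 28 genes of nucleotide excision repair 0 were called by edgeR or DESeq2 (median -0.01), and 2 were higher and 2 lower at an unadjusted p under 0.05.

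Among plasma protein genes more were called higher than lower. Of 35 tested genes of albumin, transport proteins and apolipoproteins 7 were called higher and 1 lower. Ahsg, fetuin A, was at 3679.9, 3398, 3407 and 3339 CPM at 16 weeks and 8270.4, 8917, 6641 and 5399.6 CPM at 104 weeks (log2 fold change 1.08 ± 0.13, adjusted p = 3.53e-06), and the coagulation factor gene F11 had log2 fold change 1.06 ± 0.16 (adjusted p = 9.7e-05). Both rose in every old library, whereas Alb did not pass (log2 fold change -0.41 ± 0.17, adjusted p = 0.132) except without 104-week replicate 2 (-0.56, adjusted p = 0.0499). Over left-out libraries 4 to 7 were higher, with 4 without 104-week replicate 2 or 16-week replicate 4 or when only the 8 libraries were fitted, and the 1 lower call was lost without 104-week replicate 1 or 16-week replicate 2 or 3. Among hepatocyte identity genes 1 of 22 was called higher and 1 lower, with 0 to 3 and 1 to 3 over the left-out libraries and 4 higher by DESeq2. Hnf4a had log2 fold change 0.44 ± 0.21 (adjusted p = 0.203). Complement genes were called higher in 8 of 29 cases and lower in 0 (median 0.34). That count was 3 without 104-week replicate 3 or 16-week replicate 1 or 3, 4 without 104-week replicate 4 or 16-week replicate 4, and 5 without 104-week replicate 2 or 16-week replicate 2. The list overlaps others. C8b, C6 and C9 were also among the higher male-biased genes, and C1qb and C1qc among the higher macrophage markers.

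Some single transcripts or families take a large part of all counts, and their shares were compared by an exact two-sided permutation test of the 70 ways to relabel the libraries, whose smallest possible p is 0.0286, for 5 measures. Albumin took 6.99 ± 0.543% of counts at 16 weeks and 4.95 ± 1.05% at 104 weeks (SD, n = 4). Transcripts of mitochondrial DNA took 11.1 ± 0.465% and 9.40 ± 0.738%. Major urinary protein genes took 2.82 ± 0.455% and 4.64 ± 0.634%, and immunoglobulin genes 0.000943 ± 0.000289% and 0.00765 ± 0.000656%. In each of these 4 shares the ages did not overlap (exact permutation p = 0.0286, adjusted over 5 tests 0.0357). The first 3 are large enough to move each other, and on TMM-scaled CPM, albumin was not called by edgeR, and the 13 mitochondrial genes gave 0 calls by edgeR or DESeq2 and 0 at an unadjusted p under 0.05. The fifth measure was the slope of log2 CPM on log10 of the genomic span of a gene. It was 0.0363 ± 0.0602 at 16 weeks and -0.0363 ± 0.189 at 104 weeks (exact permutation p = 0.6857), with 104-week replicate 2 at -0.316, and without that library the difference was 0.0204 in place of -0.0727.

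The age effect was then set against that of the freely fed mutant at 16 against 7 weeks, which uses other libraries and a younger pair of ages. In the mutant 0.686% of the 12690 genes were called. The difference of both age effects was called in 3.05% of genes, 1.25% with a higher and 1.8% with a lower value in the wild type. In the fatty acid oxidation list 20 of 53 members had a lower age effect in the wild type, and 18 to 21 did when any library was left out. Cyp4a10 was at 858, 532, 658 and 1150.3 CPM at 16 weeks and 54.3, 20.6, 39.5 and 21.5 CPM at 104 weeks in the wild type (log2 fold change -4.56 ± 0.37, adjusted p = 3.21e-08), without overlap, which the rule that named it required. In the mutant it was at 514, 308, 268 and 193 CPM at 7 weeks and 411, 417, 232 and 390.2 CPM at 16 weeks (difference -4.73 ± 0.47, adjusted p = 3.73e-06). Cyp4a14 was at 176, 85.2, 61.3 and 40.2 CPM at 7 weeks and 104, 91.9, 52.4 and 80.1 CPM at 16 weeks in the mutant (difference -5.26 ± 0.72, adjusted p = 0.000196), and Cyp4a29 gave a difference of -4.65 ± 0.51 (adjusted p = 1.2e-05). At both ages the mutant mean lay between the young and the old wild type for these 3 genes.

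In the male-biased list 8 of 39 members had a higher age effect in the wild type (median log2 fold changes 0.83 and -0.50), and 6 to 8 did on leaving out a library. Among core clock genes 1 had a higher and 3 a lower effect. Nr1d1 was at 10.2, 7.15, 6.47 and 5.78 CPM at 7 weeks and 7.05, 3.59, 3.28 and 4.83 CPM at 16 weeks in the mutant, a log2 fold change of -0.66 with age (difference 4.41 ± 0.55, adjusted p = 4.29e-05). Moxd1 had a higher age effect in the wild type (adjusted p = 0.000275), at 2.05, 1.05, 6.54 and 6.17 CPM at 7 weeks and 0.755, 0.285, 0.0712 and 1.02 CPM at 16 weeks in the mutant, against 1 count in all at 16 weeks in the wild type. For the cytosolic ribosomal proteins the median log2 fold change was 0.39 in the wild type and 0.31 in the mutant. The genotypes were compared at different ages, so genotype and age span cannot be told apart in this comparison.

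Among the largest changes outside the lists, Adgrf1, an adhesion G protein-coupled receptor, was at 0.222, 0.732, 0.659 and 0.137 CPM at 16 weeks and 6.4, 5.22, 2.89 and 4 CPM at 104 weeks (log2 fold change 3.38 ± 0.42, adjusted p = 7.89e-06). Grm8, a metabotropic glutamate receptor, was at 0.5, 0.266, 0.239 and 0.137 CPM at 16 weeks and 3.66, 2.69, 2.69 and 3.57 CPM at 104 weeks (log2 fold change 3.40 ± 0.63, adjusted p = 0.000949). Both receptors were below 1 CPM in every young library. Tchh, trichohyalin, was at 4.83, 6.45, 3.95 and 8.09 CPM at 16 weeks and 124, 14, 76.7 and 13.5 CPM at 104 weeks (log2 fold change 3.29 ± 0.68, adjusted p = 0.00334), with 2.57, adjusted p = 0.0143 without 104-week replicate 1. In the other direction Shisa8 was at 2.78, 5.92, 3.23 and 4.87 CPM at 16 weeks and 0, 0.0791, 0.135 and 0.655 CPM at 104 weeks (log2 fold change -4.18 ± 0.54, adjusted p = 1.32e-05), with -5.66, adjusted p = 1.73e-06 without 104-week replicate 4. These 4 genes were chosen by a rule that required every old library to lie on one side of every young one.

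**Figure D5:**
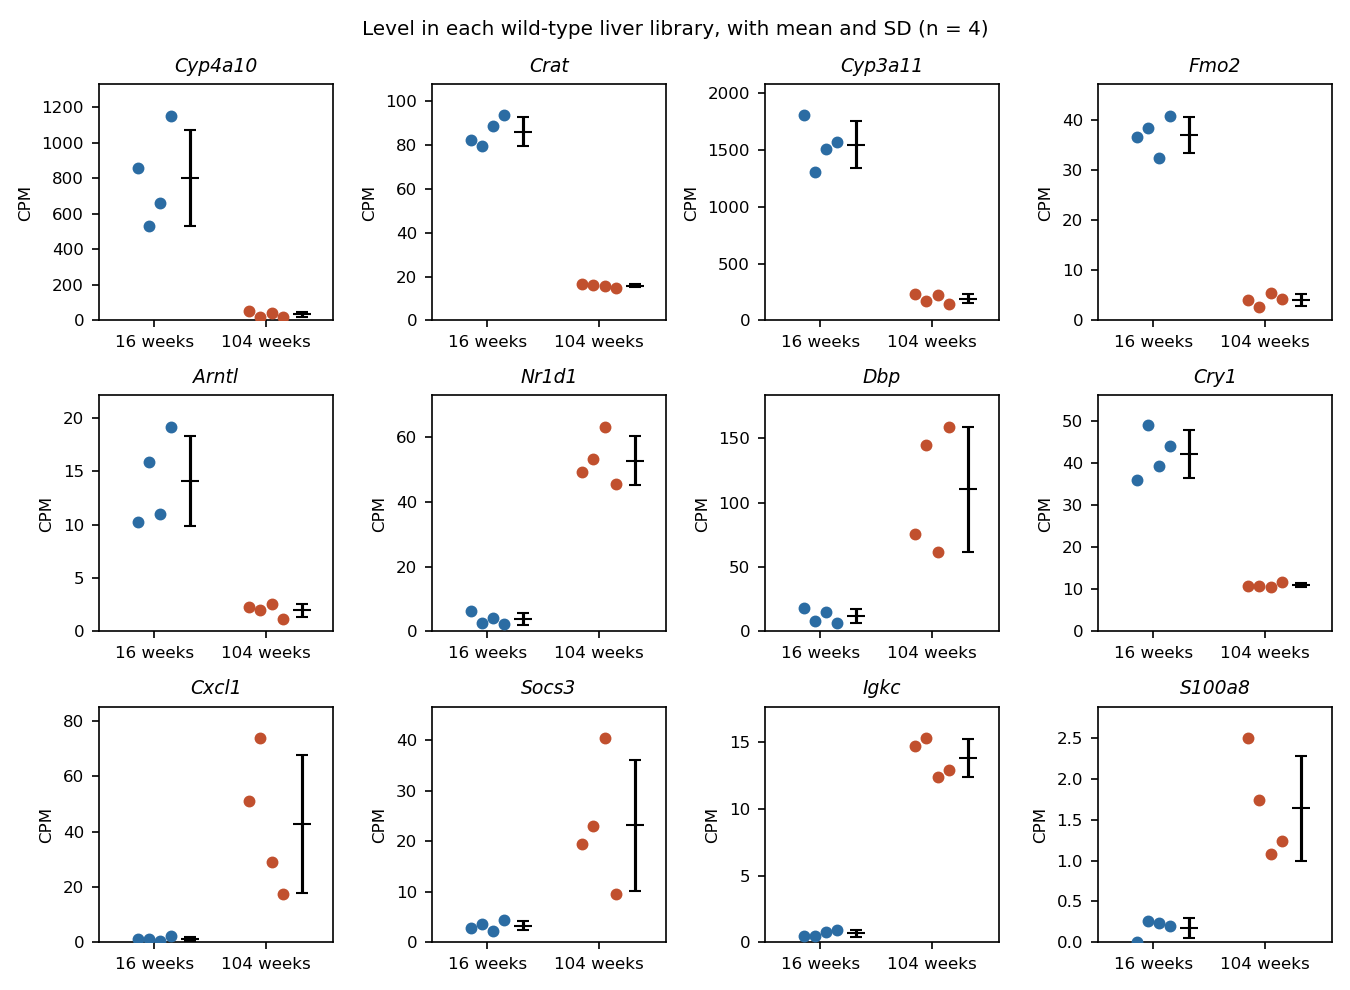
Level of 12 genes in each of the 4 libraries at 16 weeks (blue) and at 104 weeks (orange), in CPM on axes that start at 0, with the mean and SD of each group as black bars (n = 4). No old library overlaps the young ones in any of the 12 genes, though some, such as Cyp4a10, were named by a rule that required this. The old values of Cxcl1, Socs3 and Dbp are widely spread, and those of Crat and Cry1 lie close together.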

How the data were processed

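The authors deposited 1 table of whole-number read counts per gene for 24 liver libraries, of which 8 were compared here. Per the submitters' processing notes, the build is GRCm38.p6 and the tools named are featureCounts (Subread 1.6.4), STAR 2.7.0f and Trimmomatic 0.39. The annotation, strand setting and handling of reads with several matches were not given in the sources used here, so values of near-identical or overlapping genes are uncertain. All columns of the count table were matched to samples by library name.

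Deposited counts were fitted with edgeR 4.0.16 (quasi-likelihood, TMM scaling, its default filter on low counts, R 4.3.3) with 1 term for each of the 6 groups, so that all 24 libraries set the spread (18 residual degrees of freedom, common dispersion 0.0493). P-values were adjusted over all 12690 genes tested by the Benjamini-Hochberg method at a threshold of 0.05. The test was tested on simulated data: in the simulated comparison of both wild-type ages (12567 genes), 64% of genes changed by 1 on the log2 scale and 95% of those changed by 2 were recovered, and 2.5% of calls were false. The simulation gave each gene the same dispersion in all groups, whereas the real old libraries were more variable than the young ones. These rates therefore need not hold for the real data. Total counts of 13444149 to 19576692 per library set the precision. The 12 pairs of libraries within a group differed by more than sampling noise (chi-square per degree of freedom at least 13.7).

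Genes named are the 12 largest rises and falls without overlap at a mean of at least 2 CPM, up to 4 called members and the first gene of each list, a set of fixed genes and the 3 largest differences from the mutant in each direction. For those largest rises and falls, the lack of overlap between the ages follows from the choice and is no separate result. Not all genes that this rule admits are described, some results are not reported here, and some were added after their values were seen, as stated beside them. The members and lists were chosen with earlier results of these data known. Alternatives were other size factors, DESeq2 1.42.0, other filters on low counts, a replicate term, the 8 libraries alone and each library left out, and the leave-outs for gene lists and for genes added later were chosen after seeing the data. Promoter letters were searched in RefSeq promoters, which 1007 of the 1286 called genes matched.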

Additional observations from a re-analysis of the deposited data

Results flagged for a closer look

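In groups of 4, a library was singled out when its gap to the nearest other exceeded the 95% critical value of Dixon's test. Among 246 groups of the genes reported and the 5 single-value measures, 20 (8.13%) were singled out. This share cannot be set against a chance rate, because some genes, such as Egr1, Saa2, Cyp7a1 and Acadm, were named after their values were seen. Moxd1 at 16 weeks had 1 count in all, which fixes its result. In 5 of the 20 groups the library was 104-week replicate 1, which was high in Egr1 at 426 CPM, in Btg2 at 109 CPM, in Maff at 36.1 CPM, in Fos at 23.9 CPM and in Cps1 at 5928 CPM. High values in 16-week replicate 4 were found for Col3a1 at 52.3 CPM, Col1a1 at 19.1 CPM, Myc at 18.6 CPM, Fos at 3.63 CPM and Moxd1, its only nonzero young library, at 0.0685 CPM. The same library was low in G0s2 at 139 CPM and Igfbp2 at 78.3 CPM. In 16-week replicate 2, Saa2 was high at 388 CPM, while Acot5 at 98.5 CPM and Acadm at 329 CPM were low. In 104-week replicate 2, Mup1 at 3747 CPM and Serpina12 at 366 CPM were high. In 104-week replicate 3, Cyp7a1 was high at 79.3 CPM and Ephx2 low at 531 CPM, and in 104-week replicate 4 Igfals was high at 153 CPM.

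Among the named genes whose age effect in the wild type differed from that in the mutant by edgeR's test of the difference, adjusted over all genes, 5 that were chosen by the size of their difference are given. The log2 difference was -5.26 for Cyp4a14, -4.73 for Cyp4a10 and -4.65 for Cyp4a29, and 4.41 for Nr1d1. For Moxd1 the fitted difference was 9.45, which depends on the fitting because the young wild type had 1 count in all.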

How the results depend on the processing

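The number of genes called at 104 against 16 weeks, 1286, was 1279 with size factors by RLE, 1648 by DESeq2, 1098 without a filter on low counts, 1285 with a mean of at least 1 CPM and 1087 with the 8 libraries alone, of which 1281 of the DESeq2 calls and 869 of those from the 8 libraries were shared with the 1286. Leaving out 1 library gave 792 (without 16-week replicate 3) to 1533 (without 104-week replicate 4). The 387 genes whose age effect differed from that of the mutant became 646 by DESeq2, and 228 (without mutant 7-week replicate 3) to 505 on leaving out 1 library, with 257 without wild-type 16-week replicate 3. The causes were not tested. Shares of counts kept their direction on leaving out each library: albumin differed by -2.35 to -1.64 percentage points, mitochondrial transcripts by -2.03 to -1.45, major urinary proteins by 1.51 to 2.01 and immunoglobulins by 0.00648 to 0.00693. Taken over counts without mitochondrial transcripts, albumin differed by -2.40 and immunoglobulins by 0.00738, and over counts without albumin the mitochondrial transcripts differed by -2.06. The slope on gene span differed by -0.115 to 0.0204. Of 1645 values of single genes under the alternatives, 1585 kept direction and call, 39 lost the call, 18 gained one and 3 reversed: Fos without 104-week replicate 1 (log2 fold change -0.10, and -0.10 to 3.75 over all libraries left out), and Pecam1 without 104-week replicate 1 (0.053) or 16-week replicate 4 (0.063, and -0.25 to 0.063 over all).

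Libraries with the same replicate number deviated together only weakly (correlations of 0.139, 0.0454, -0.0497 and 0.0609). Only 16-week replicate 1 correlated best with the old library of its own number. Such correlations cannot decide whether the numbers pair the libraries, and the main fit used no pairing. With the replicate number as a block 1303 genes were called, 1184 of them shared with the fit without it, and 388 for the difference from the mutant. With the block 35 of 78 cytosolic ribosomal proteins were called higher in place of 21, 7 of 21 immediate-early genes in place of 10, 4 of 22 hepatocyte identity genes in place of 1, and 1 chemokine and 1 cholangiocyte marker in place of 2 each. It called 0 of 77 mitochondrial ribosomal proteins lower in place of 1. Depth limits genes of a few counts, such as Moxd1 and Ighg2c.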
